A study of Mus musculus with 6 samples.

Results

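The 10 genes described here encode the machinery by which cells show peptides on MHC class II molecules, and they were chosen by name: Cd74, H2-Aa, H2-Ab1, H2-Eb1, H2-DMa, H2-DMb1, H2-DMb2, H2-Oa, H2-Ob and Ciita. All 10 were found among the 45777 genes of the deposited count table, and all 10 passed the filter on low counts that left 16707 genes for the test. They were measured in brown adipose tissue of male, wild-type C57Bl6/J mice given intraperitoneal injections over 2 weeks. The injections held phosphate-buffered saline (PBS) or Rb2, a ginsenoside, which is a saponin of ginseng. Each group had 3 mice and 1 library per mouse, named here by the number in its column (PBS 1, 2 and 4, and Rb2 1, 3 and 4). The control mice thus received the injections without the compound. Neither age nor dose is stated in the labels.

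MHC class II molecules are pairs of an alpha and a beta chain that hold peptides from proteins taken up by the cell and show them to CD4+ T cells. In the endoplasmic reticulum the pair binds the invariant chain Cd74, which blocks the peptide groove and guides the complex to endosomes, where proteases trim Cd74 away. The H2-DM pair then exchanges the remaining fragment for antigenic peptides, and the H2-O pair holds H2-DM back, mainly in B cells and some dendritic cells. Transcription depends on Ciita, a coactivator that binds no DNA itself but is recruited by factors sitting on short conserved promoter boxes. In adipose tissue the class II genes are read mostly from macrophages, dendritic cells and B cells, and adipocytes can express them as well.

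The tissue label was borne out by Ucp1, the heat-producing uncoupling protein of brown adipocytes, at 3983 ± 711 CPM with PBS, against 3674 ± 910 CPM with Rb2 (SD, n = 3). CPM are counts scaled to library size, TMM-normalised, and every mean is given ± SD of 3 libraries. Total counts ran from 83642183 to 92666780 per library, so that 3 counts, the most that a count of 0 allows, correspond to 0.0307 to 0.0370 CPM (counting error only). Transcripts of 18 skeletal muscle markers made up 0.244% of PBS 1 and 0.821% of PBS 2, but 0.00108% of PBS 4, 0.000271% of Rb2 1, 0.0458% of Rb2 3 and 0.0290% of Rb2 4. A gene was called where the Benjamini-Hochberg adjusted p over the whole table, from the quasi-likelihood test of edgeR, was under 0.05. By this rule 5.33% of the genes tested (890) were higher with Rb2 and 5.11% (853) were lower. With library size alone as scaling the calls were 492 higher and 779 lower.

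The classical class II chains and the invariant chain fell to between 48.9% and 59.4% of their PBS level after Rb2. These were H2-Aa, H2-Ab1, H2-Eb1 and Cd74, the 4 most abundant of the 10 genes. Together with the other 6, which also had negative log2 fold changes but did not pass the threshold, they made 4 of 10 members called lower and none called higher, beside 5.11% of all genes tested called lower. In 7 of the 10 every Rb2 library lay below every PBS library, which held for 17.6% of all genes tested. Among the 7, H2-Oa passed the filter on low counts only through its PBS libraries, so that lower Rb2 values were built in, and without it the count was 6 of 9. The median log2 fold change was -0.82 over the members, -0.75 without H2-Oa and -0.01 over all genes tested.

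H2-Aa and H2-Ab1 encode the alpha and beta chain of the I-A molecule. H2-Aa (gene 14960; chromosome 17, 34282744 to 34287823 in GRCm38.p6) was at 67.7, 46.1 and 50.5 CPM in PBS 1, 2 and 4, and at 30.1, 32.8 and 34.8 CPM in Rb2 1, 3 and 4. The lowest PBS library thus lay above the highest Rb2 library. The mean of 54.8 ± 11.4 CPM with PBS compared with 32.6 ± 2.35 CPM after Rb2, a log2 fold change of -0.75 ± 0.16 SE (edgeR adjusted p = 0.0216). H2-Ab1 (gene 14961; chromosome 17, 34263227 to 34269418) was at 67.3, 45.5 and 45.3 CPM with PBS and at 24.5, 24.9 and 28.0 CPM with Rb2, and its groups were separated as well. Its mean went from 52.7 ± 12.7 to 25.8 ± 1.94 CPM (-1.03 ± 0.17 SE, edgeR adjusted p = 0.0102).

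H2-Eb1 (gene 14969; chromosome 17, 34305867 to 34316674), the beta chain of the I-E molecule, was at 62.0, 46.6 and 53.4 CPM with PBS and at 26.7, 31.4 and 29.3 CPM with Rb2. The mean went from 54.0 ± 7.74 to 29.1 ± 2.36 CPM (-0.89 ± 0.14 SE, edgeR adjusted p = 0.00907), again without overlap. Its partner is the alpha chain H2-Ea, which C57BL/6 mice are known not to make because its gene is damaged. The table lists this gene as H2-Ea-ps, and it had 0 counts in all 6 libraries. The neighbouring H2-Eb2 was near that limit, with 0, 7 and 4 counts with PBS and 0, 0 and 5 with Rb2, so that transcripts of an I-E beta chain were measured without transcripts of its alpha chain.

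Cd74 (gene 16149; chromosome 18, 60803849 to 60812652), the invariant chain, was at 165, 121 and 117 CPM in PBS 1, 2 and 4, and at 59.3, 65.9 and 73.3 CPM in Rb2 1, 3 and 4. It was the most abundant member in each library and went from 134 ± 26.9 to 66.2 ± 6.99 CPM (-1.02 ± 0.17 SE, edgeR adjusted p = 0.0101). PBS 1 was the highest library for Cd74, H2-Aa, H2-Ab1 and H2-Eb1. The spread between PBS mice was the wider one, with a coefficient of variation of 14.3% to 24.0% for these genes against 7.22% to 10.6% with Rb2.

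Cd74, H2-Ab1 and H2-Eb1 stayed past the threshold whichever 1 of the 6 libraries was left out. H2-Aa lost its call when PBS 1 was left out (-0.57, edgeR adjusted p = 0.0693). The same held for leaving out Rb2 1 (-0.69, adjusted p = 0.0809) or Rb2 3 (-0.75, adjusted p = 0.0702). With both PBS libraries that carried the most muscle transcripts left out, no gene of the table was called in edgeR (2063 had an unadjusted p under 0.05), and the log2 fold changes of H2-Aa, Cd74, H2-Ab1 and H2-Eb1 were -0.63, -0.82, -0.81 and -0.87. PBS 4, the PBS library that remained, was above every Rb2 library for each of these 4 genes, a comparison that rests on 1 library. With a covariate for the muscle markers all 4 stayed past the threshold (-0.70 to -0.96).

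**Figure D1:**
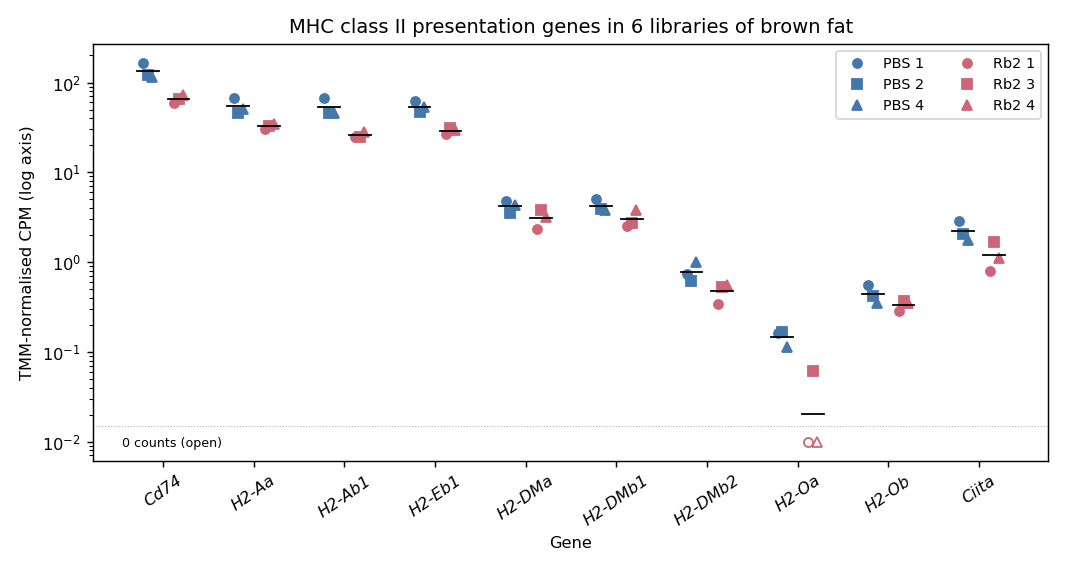
TMM-normalised CPM (log axis) of the 10 members in each of the 6 libraries, with PBS in blue, Rb2 in red and a bar at each group's mean of 3; open symbols at the bottom are libraries with 0 counts. Cd74, H2-Aa, H2-Ab1 and H2-Eb1 lie between 24.5 and 165 CPM with the groups apart, whereas the groups overlap for H2-DMa, H2-DMb1 and H2-Ob.

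The peptide-loading genes were less abundant, and none of their differences passed the threshold. H2-DMa (gene 14998; chromosome 17, 34119693 to 34139101), the alpha chain of the peptide exchanger, was at 4.74, 3.49 and 4.34 CPM with PBS and 2.33, 3.78 and 3.16 CPM with Rb2, so the groups overlapped (-0.44 ± 0.23 SE, edgeR adjusted p = 0.227). H2-DMb1 (gene 14999; chromosome 17, 34153191 to 34160229), a beta chain, was at 5.03, 3.86 and 3.81 CPM with PBS and 2.55, 2.75 and 3.85 CPM with Rb2 (-0.47 ± 0.22 SE, adjusted p = 0.188). Here Rb2 4 lay between PBS 2 and PBS 4. The 95% confidence intervals of these differences were -0.95 to 0.07 for H2-DMa and -0.97 to 0.03 for H2-DMb1. They include the -0.75 and -0.89 of H2-Aa and H2-Eb1 as well as no difference, but not the -1.02 of Cd74 and the -1.03 of H2-Ab1.

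H2-DMb2 (gene 15000; chromosome 17, 34143229 to 34151553), the second beta chain, had 60, 59 and 98 counts with PBS and 29, 44 and 52 with Rb2. Every Rb2 library was below every PBS library, and the difference did not pass (-0.71 ± 0.35 SE, edgeR adjusted p = 0.199). The 2 beta chain genes are close copies. Of the 50-base words of the H2-DMb1 transcript, 369 of 1355 (27.2%) also occur in that of H2-DMb2, so reads of the pair can be exchanged and the split between them is uncertain. H2-DMa overlaps Brd2, a gene on the other strand at 75.8 CPM with PBS, by 3122 bases, and whether the counting used strand is not stated.

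The H2-O pair, which restrains H2-DM, was at the edge of detection. H2-Oa (gene 15001; chromosome 17, 34092379 to 34095234) had 13, 16 and 11 counts with PBS and 0, 5 and 0 counts with Rb2. The groups did not overlap, but H2-Oa passed the filter on low counts only through its PBS libraries, and the difference did not pass the threshold (-2.82 ± 1.02 SE, edgeR adjusted p = 0.101). H2-Ob (gene 15002; chromosome 17, 34238905 to 34245908) had 45, 40 and 34 counts with PBS and 24, 30 and 32 with Rb2 (-0.40 ± 0.37 SE, adjusted p = 0.486), with overlap once scaled to depth. H2-Oa lies wholly within the antisense gene BC051537, which had 0 counts in all libraries.

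Ciita (gene 12265; chromosome 16, 10480014 to 10531064), the coactivator on which the others depend, was at 2.85, 2.06 and 1.75 CPM in PBS 1, 2 and 4, and at 0.791, 1.66 and 1.10 CPM in Rb2 1, 3 and 4. The groups were apart by a narrow margin, between PBS 4 and Rb2 3. Its mean of 2.22 ± 0.568 CPM with PBS, against 1.18 ± 0.440 CPM with Rb2 gave a log2 fold change of -0.90 ± 0.32 SE, which is of the size seen for the classical chains but did not pass in edgeR (adjusted p = 0.0971). The DESeq2 Wald test called it (-0.91, adjusted p = 0.0456). The table has 1 count per gene, so the cell-type-specific promoters of Ciita cannot be told apart, and its region overlaps those of Dexi, on the other strand at 7.84 CPM with PBS, and of LOC115488669.

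Per kilobase of transcript, levels could be compared between genes. With PBS, Cd74 was at 95.3 ± 19.1 CPM per kb, H2-Aa at 48.6 ± 10.1, H2-Ab1 at 43.5 ± 10.4 and H2-Eb1 at 32.4 ± 4.64. H2-DMb1 (3.02 ± 0.492) and H2-DMa (2.53 ± 0.386) came next. The SD is the spread between mice, and differences between genes measured in the same libraries were not tested. Below H2-DMa followed H2-DMb2 (0.551 ± 0.140), Ciita (0.369 ± 0.0945), H2-Ob (0.164 ± 0.0397) and H2-Oa (0.134 ± 0.0269). With Rb2 the upper 4 were at 46.9 ± 4.96, 28.9 ± 2.08, 21.3 ± 1.60 and 17.4 ± 1.42 CPM per kb, in the same order. H2-DMb1 and H2-DMa followed at 2.17 ± 0.497 and 1.86 ± 0.440.

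Together the members took 0.0288% to 0.0365% of all counts with PBS and 0.0138% to 0.0180% with Rb2, and the 3 classical chains and Cd74 made up 94.4% to 96.3% of that in every library. Within this block the ratios of reads between members could be compared library by library. There were 2.44, 2.63 and 2.31 Cd74 reads per H2-Aa read in PBS 1, 2 and 4, compared with 1.97, 2.01 and 2.11 in Rb2 1, 3 and 4. H2-Ab1 reads per H2-Aa read were 0.994, 0.986 and 0.897 with PBS and 0.813, 0.758 and 0.805 with Rb2. Both ratios were lower in every Rb2 library, whereas Cd74 per H2-Ab1 overlapped (2.46 to 2.67 with PBS, 2.42 to 2.65 with Rb2), as did H2-Eb1 per H2-Aa (0.916 to 1.06 and 0.842 to 0.957). Relative to H2-Eb1 the groups overlapped too, at 2.18 to 2.67 and 2.10 to 2.50 for Cd74 and at 0.847 to 1.09 and 0.792 to 0.956 for H2-Ab1, so that the separation was seen against H2-Aa only.

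The GC content of the transcripts was 56.6% for Cd74 and 57.3% for H2-Ab1, and 51.0% for H2-Aa and 51.8% for H2-Eb1. The libraries differed in a trend with GC content, given here as Spearman rho, across genes, of GC content against the log2 CPM less its mean of 6 libraries (genes are not independent replicates). It was -0.00573 in PBS 1, 0.353 in PBS 2 and 0.399 in PBS 4, but -0.296 in Rb2 1, -0.252 in Rb2 3 and -0.129 in Rb2 4. In genes with 55% to 60% GC the median log2 fold change was -0.23 and 10.8% were called lower, against -0.08 and 5.64% in genes with 50% to 55%. When GC content and length entered the fit as an offset, the log2 fold changes became -0.80 for Cd74 (edgeR adjusted p = 0.0318), -0.66 for H2-Aa (adjusted p = 0.0286) and -0.85 for H2-Eb1 (adjusted p = 0.0139). H2-Ab1 moved to -0.75 and just missed the threshold (adjusted p = 0.0503).

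**Figure D2:**
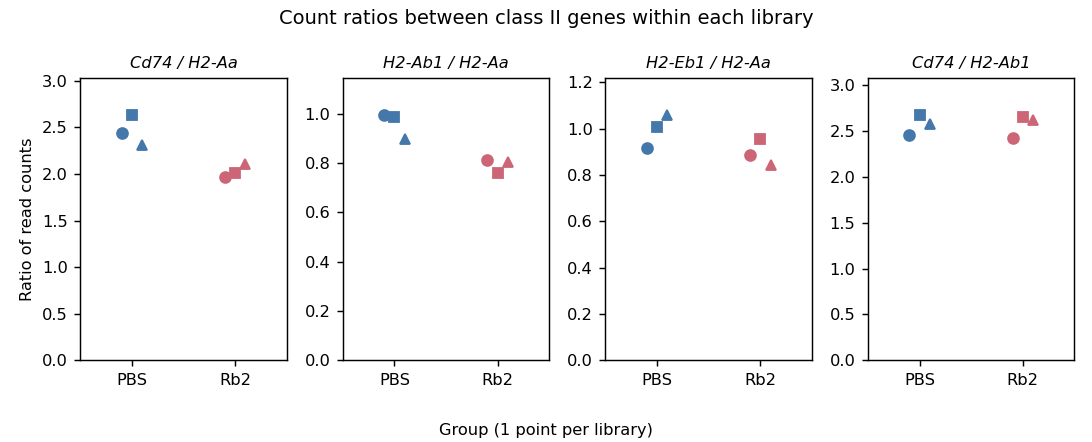
Ratios of read counts between pairs of class II genes within each library (1 point per library, PBS in blue, Rb2 in red; axes start at 0). Cd74 per H2-Aa and H2-Ab1 per H2-Aa are lower in all 3 Rb2 libraries, and the other 2 ratios plotted overlap.

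Class II promoters share a set of conserved boxes, the X box and downstream of it the Y box, which binds the factor NF-Y in its CCAAT orientation. RefSeq promoter sequences (GRCm38.p6, 250 bases before to 50 after a gene's start) were at hand for 7 of the 10 members, in 8 windows, and not for Cd74, H2-Ab1 and Ciita. The Y box core CTGATTGG, searched on both strands, occurred in the windows of H2-Aa, H2-Eb1 and H2-Oa and in 4.10% of all 32851 windows. Its shorter form GATTGG, chosen after the members' promoters had been read and contained in the longer one, occurred in the windows of all 7 genes and in 16.1% of all windows. CCAAT, which overlaps it in reverse, was in the same 7 and in 37.4% of all windows.

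The stretch around this short Y box core is shown for the 6 members in which it lies 44 to 91 bases before the start that the RefSeq table uses. It was chosen as a stretch that these promoters, of called and uncalled members, share. Capitals mark GATTGG, and each is printed 5′ to 3′ on the gene's strand. The windows lie at chr17:34287857-34287912 (H2-Aa, minus strand), chr17:34305767-34305822 (H2-Eb1), chr17:34153089-34153144 (H2-DMb1), chr17:34145118-34145173 (H2-DMb2), chr17:34238807-34238862 (H2-Ob) and chr17:34092295-34092350 (H2-Oa), the last 5 on the plus strand.
H2-Aa: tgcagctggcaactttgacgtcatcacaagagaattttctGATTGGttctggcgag
H2-Eb1: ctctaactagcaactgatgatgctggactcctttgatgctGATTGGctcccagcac
H2-DMb1: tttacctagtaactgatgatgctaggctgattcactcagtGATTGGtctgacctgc
H2-DMb2: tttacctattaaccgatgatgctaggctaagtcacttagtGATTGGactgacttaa
H2-Ob: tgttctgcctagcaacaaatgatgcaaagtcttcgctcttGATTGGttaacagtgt
H2-Oa: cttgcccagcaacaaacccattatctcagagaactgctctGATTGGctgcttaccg

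In these stretches the Y box began 49 bases before the start of H2-Aa, 60 before that of H2-Eb1, 62 before that of H2-DMb1, and 58 and 44 before those of H2-Ob and H2-Oa. For H2-DMb2 it began 91 bases before the start that the promoter table uses, 34145249, which lies inside the gene as its RefSeq coordinates give it (from 34143229). H2-DMa, the member with 2 windows, had its match 199 bases before a start that also lies inside the gene (34125518), and is not shown. TGACG, a part of cyclic AMP response elements and of some X boxes, was found in H2-Aa alone of these 7 genes (20.8% of all windows), 74 bases before its start. GCAACAG was found in none of the 7 (5.48% of all windows). The short core thus occurred in called and uncalled members alike, in 7 of the 8 windows. As it was chosen after these promoters had been read, its presence in all 7 genes is not a result. The longer CTGATTGG, planned beforehand, was in the called H2-Aa and H2-Eb1 and the uncalled H2-Oa.

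The factors that sit on these boxes showed no call. Of 9 promoter factors, among them Rfx5, Rfxap and Rfxank of the X box complex, the NF-Y subunits and Creb1, none was called by edgeR, DESeq2 or limma-voom, and 2 had an unadjusted p under 0.05. The median log2 fold change of the list was 0.01. Those 2 were Nfyc, an NF-Y subunit (0.44 ± 0.16 SE, edgeR adjusted p = 0.0985), and Kat2b, a histone acetyltransferase (0.44 ± 0.16 SE, adjusted p = 0.110). Rfx5 was at 3.93 ± 0.214 CPM with PBS, against 3.74 ± 0.990 CPM with Rb2.

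Interferon gamma is the classical inducer of Ciita outside professional antigen-presenting cells, and Irf1 is one of the factors of that route. Ifng itself had at most 0.0485 CPM in any library and was not tested. Of the 9 tested genes of the route none was called by any of the 3 tools and none had an unadjusted p under 0.05. Irf1 had a log2 fold change of -0.29 ± 0.17 SE (edgeR adjusted p = 0.271).

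Regulators of Ciita in myeloid and B cells moved in both directions. Of 6, 1 fell and 1 rose, beside 5.11% and 5.33% of all genes tested. Irf8, a factor of macrophages, dendritic cells and B cells, was at 2.40, 3.19 and 3.06 CPM with PBS and 1.26, 1.73 and 1.69 CPM with Rb2 (-0.88 ± 0.23 SE, edgeR adjusted p = 0.0419). Prdm1, known as Blimp-1, a repressor of Ciita in plasma cells and dendritic cells, was at 0.284, 0.641 and 0.358 CPM with PBS and 0.838, 2.52 and 2.96 CPM with Rb2 (2.29 ± 0.51 SE, adjusted p = 0.0290). The groups were apart for both genes. Irf8 kept its call in none of the 6 tests with a library left out, with adjusted p from 0.0535 (without Rb2 4) to 0.153 (without PBS 2). Prdm1 kept it only without Rb2 1 (adjusted p = 0.0257). Limma-voom called neither Irf8 (adjusted p = 0.0519) nor Prdm1 (adjusted p = 0.0701). Spi1, the myeloid factor PU.1, had a log2 fold change of -0.74 ± 0.26 SE (adjusted p = 0.0945). Irf4 did not pass (adjusted p = 0.407), with 110 CPM in Rb2 1 and 7.08 to 17.1 CPM in the other 5 libraries.

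After synthesis, class II molecules depend on endosomal proteases and on the ubiquitin ligases that send them to lysosomes. None of 12 genes for invariant chain and antigen processing was called by edgeR, DESeq2 or limma-voom (1 with an unadjusted p under 0.05, median log2 fold change -0.12). Ctss, the cathepsin that makes the last cut of Cd74, had -0.29 ± 0.22 SE (edgeR adjusted p = 0.406), and Ifi30, the thiol reductase of the endosome, -0.29 ± 0.16 SE (adjusted p = 0.251). The 4 with the smallest p were Ctsh (-0.50, adjusted p = 0.133), Lgmn (0.28, adjusted p = 0.182), Cstb (-0.22, adjusted p = 0.235) and Ifi30. The summed level of this list lay between 95.3% and 112% of its PBS mean in all 6 libraries.

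Of 10 tested genes of class II turnover and surface partners, 1 fell and 1 rose, beside 5.11% and 5.33% of all genes tested. March8 (Marchf8), a ligase that ubiquitinates class II beta chains, was at 31.3, 31.2 and 28.2 CPM with PBS and 55.3, 42.5 and 38.3 CPM with Rb2 (0.59 ± 0.15 SE, edgeR adjusted p = 0.0400). Cd83, an activation marker of dendritic and B cells that protects class II from such ligases, was at 2.85, 2.16 and 2.38 CPM with PBS and 0.921, 0.800 and 1.37 CPM with Rb2 (-1.25 ± 0.27 SE, adjusted p = 0.0241). The groups were apart for both genes. March8 kept its call with Rb2 4 left out and in none of the other 5 such tests, and Cd83 kept it without PBS 4 and without Rb2 4. Limma-voom called Cd83 (adjusted p = 0.0344) but not March8 (adjusted p = 0.0618). The March8 call was also lost with library size alone as scaling and with the muscle covariate. March1 (Marchf1), the ligase of resting antigen-presenting cells, had -0.32 ± 0.32 SE (adjusted p = 0.517).

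Among 7 tested costimulatory molecules and T cell receptors of class II, the inhibitory ligand Cd274 (PD-L1) rose and none fell, beside 5.33% of all genes tested called higher. It was at 27.7, 21.5 and 43.5 CPM with PBS and 94.6, 69.5 and 72.3 CPM with Rb2, so that its groups were apart (1.35 ± 0.26 SE, edgeR adjusted p = 0.0225). The call was lost without PBS 1, without Rb2 1 and without Rb2 3. Cd86, a costimulatory ligand (-0.70 ± 0.34 SE, adjusted p = 0.196), and Lag3, a receptor that binds class II (-0.57 ± 0.24 SE, adjusted p = 0.150), did not pass. Cd4 was at 0.323 ± 0.111 CPM with PBS, against 0.423 ± 0.201 CPM with Rb2.

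The class II genes lie together with genes of class I peptide supply. Between H2-DMb1 and H2-Ob stand Psmb9, Tap1, Psmb8 and Tap2, and between H2-Oa and H2-DMa stands Brd2, a ubiquitous chromatin reader. Of the 7 listed neighbours, Btnl2 and BC051142 were not tested, and 2 of the other 5 were called lower, beside 5.11% of all genes tested. Psmb8, an immunoproteasome subunit, fell (24.8, 26.6 and 18.3 CPM with PBS, 9.85, 13.4 and 16.2 CPM with Rb2, -0.82 ± 0.21 SE, edgeR adjusted p = 0.0390), and so did Psmb9 (-0.73 ± 0.19 SE, adjusted p = 0.0445). The peptide transporter genes Tap2 (-0.41 ± 0.12 SE, adjusted p = 0.0512) and Tap1 (-0.15 ± 0.14 SE, adjusted p = 0.512) and Brd2 (0.08 ± 0.15 SE, adjusted p = 0.767) did not pass. Leaving out PBS 1, PBS 2, Rb2 1 or Rb2 3, adding the GC and length offset, or using limma-voom ended both calls.

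**Figure D3:**
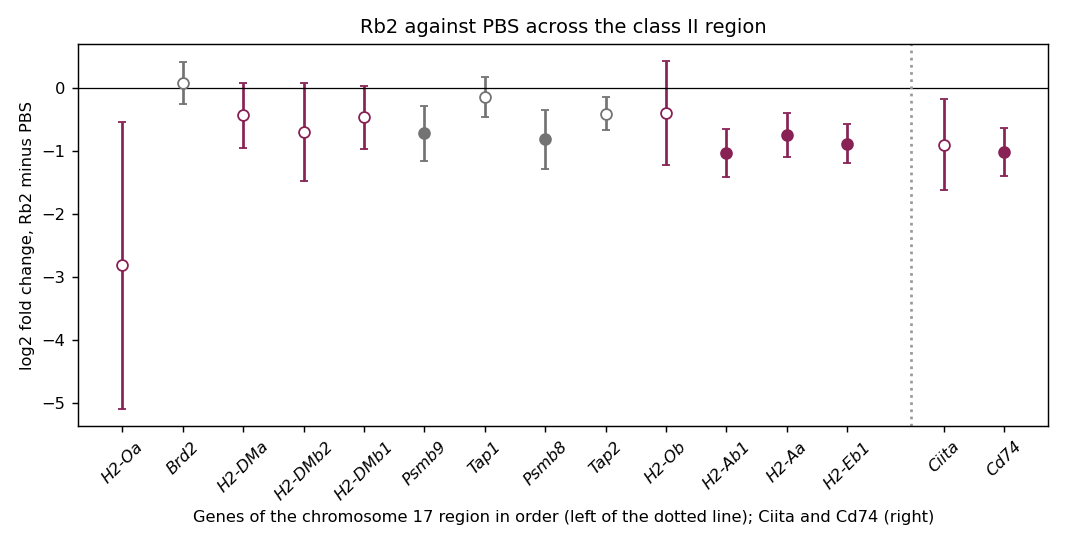
Log2 fold change (Rb2 minus PBS, edgeR, bars are 95% confidence intervals) of the genes of the class II region in their order on chromosome 17, equally spaced, with Ciita and Cd74 from other chromosomes at the right; members are purple, other genes grey, and filled symbols passed the threshold. The classical chains at the right end of the region sit at -0.75 to -1.03, Psmb9 and Psmb8 at -0.73 and -0.82, and Brd2 at 0.08.

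The class I list, which includes those immunoproteasome and transporter genes, had 6 of 18 members lower and none higher (median log2 fold change -0.52), beside 5.11% of all genes tested called lower. The smallest p were those of H2-T23 (-0.82 ± 0.15 SE, edgeR adjusted p = 0.0145), H2-Q4 (-0.84 ± 0.17 SE, adjusted p = 0.0202) and H2-Q7 (-0.85 ± 0.19 SE, adjusted p = 0.0267), all nonclassical class I genes with close relatives among which reads may be split. B2m, the shared light chain, had -0.39 ± 0.28 SE (adjusted p = 0.380), and Nlrc5, the counterpart of Ciita for class I, -0.41 ± 0.20 SE (adjusted p = 0.188). No gene of the list was called in edgeR when PBS 1, PBS 2 or Rb2 3 was left out, 1 when Rb2 1 was, and 2 with the GC and length offset, while DESeq2 called 10 lower and limma-voom 3.

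Some markers of the cells that carry class II were called lower as well, and in whole tissue fewer cells of a type and less RNA per cell cannot be told apart. Of 9 pan-leukocyte markers 1 was called lower, beside 5.11% of all genes tested, and their median log2 fold change was -0.61. An unadjusted p under 0.05 was seen in 7 of the 9 and in 5020 of all 16707 genes tested. Their summed level was 44.2 to 67.9 CPM with PBS and 31.6 to 40.8 CPM with Rb2, without overlap. Laptm5, a lysosomal protein of blood cells, was the called one (12.7 ± 3.11 to 7.26 ± 1.25 CPM, -0.81 ± 0.20 SE, edgeR adjusted p = 0.0339), and it lost the call when PBS 1, PBS 2, Rb2 1 or Rb2 3 was left out. Limma-voom called none of the 9. Ptprc (CD45) overlapped between the groups (-0.31 ± 0.25 SE, adjusted p = 0.434).

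Macrophage and monocyte markers had 5 of 19 tested members lower and none higher (median -0.41), beside 5.11% of all genes tested called lower, with a summed level of 149 to 189 CPM with PBS and 109 to 140 CPM with Rb2. The complement subunit C1qc fell (15.5 ± 0.723 to 8.53 ± 0.995 CPM, -0.86 ± 0.13 SE, edgeR adjusted p = 0.00903) whichever library was left out. C1qb (-0.79), C1qa (-0.69), Csf1r (-0.48), the receptor of the macrophage growth factor, and Folr2 (-1.39), a marker of resident macrophages, fell as well. With PBS 1, PBS 2, Rb2 1 or Rb2 3 left out, or with the muscle covariate, 1 marker was called instead of 5, and 2 were with the GC and length offset. Limma-voom called 3. Adgre1 (F4/80, -0.48, adjusted p = 0.204) and Cd68 (-0.30, adjusted p = 0.529) did not pass.

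Dendritic cell markers had 1 of 14 tested members lower, near the 5.11% of all genes tested. It was Clec10a, a lectin of dendritic cells and macrophages (-0.99 ± 0.27 SE, edgeR adjusted p = 0.0481), a call lost when any of PBS 1, PBS 2, Rb2 1 and Rb2 3 was left out. In all, 12 of 18 alternatives lost it, limma-voom among them. Itgax, Flt3, Xcr1 and Clec9a were at 0.133 to 0.789 CPM in the 6 libraries and overlapped between the groups. In 6 of the 15 listed markers, of which Siglech was not tested, every Rb2 library lay below every PBS library, beside 17.6% of all genes tested. Of the 6, Batf3 had 39, 30 and 25 counts with PBS and 0, 9 and 22 with Rb2, so that it passed the filter mainly through its PBS libraries. Also among the 6 were Zbtb46 (-0.54 ± 0.16 SE, edgeR adjusted p = 0.0608) and Cd209a (-1.91 ± 0.67 SE, adjusted p = 0.0992), which did not pass the threshold. Zbtb46 was at 28.0 CPM with PBS, far above Itgax, Flt3, Xcr1 and Clec9a, and which cells carried it was not tested. No B cell marker was called by edgeR or limma-voom and 1 by DESeq2, with 3 of 12 at an unadjusted p under 0.05. Their median log2 fold change was -0.83 and their summed level 12.4 to 26.8 CPM with PBS and 7.57 to 9.55 CPM with Rb2. PBS 1 had the most B cell transcripts, with Ighm, the heavy chain of IgM, at 21.7 CPM against 4.29 to 8.06 CPM in the other libraries. None of 15 T and NK cell markers was called by any of the 3 tools (1 with an unadjusted p under 0.05, median -0.25), beside the same shares of all genes.

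The members' summed level was lower relative to the sums of pan-leukocyte and macrophage markers, while the groups overlapped relative to the dendritic and B cell sums. It was 5.54, 5.62 and 6.27 times the summed pan-leukocyte markers in PBS 1, 2 and 4, compared with 4.60, 5.19 and 4.28 times in Rb2 1, 3 and 4. Relative to the macrophage markers it was 1.99, 1.70 and 1.85 with PBS and 1.35, 1.51 and 1.24 with Rb2. Both ratios were lower in every Rb2 library, and relative to the dendritic cell markers the groups overlapped (2.57 to 4.16 and 2.22 to 2.94). They also overlapped relative to the B cell markers, at 14.1, 21.8 and 22.2 with PBS and 19.4, 17.2 and 20.8 with Rb2, with PBS 1 the lowest of the 6. These last sums rest on few genes. The dendritic sum was 85.4 to 105 CPM with PBS, with means of 32.1 for Fscn1, 28.0 for Zbtb46, 13.5 for Cd24a and 11.5 for Sirpa. The B cell sum was 12.4 to 26.8 CPM, with a mean of 12.1 for Ighm. In the macrophage sum Lyz2 was the largest, with a mean of 43.1 CPM with PBS and a log2 fold change of -0.40. The called C1qa, C1qb and C1qc were at 15.5 to 19.5 CPM, with -0.69 to -0.86. In the pan-leukocyte sum the largest was Laptm5, at 12.7 CPM with PBS (-0.81). Ratios to single markers were not computed, and whether any of these sums follows the number of such cells was not tested. The part of the cell composition in the lower class II levels was not tested. Of 12 brown adipocyte markers 2 fell (median -0.04), and of 12 endothelial markers 6 fell (median -0.80), beside 5.11% of all genes tested.

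**Figure D4:**
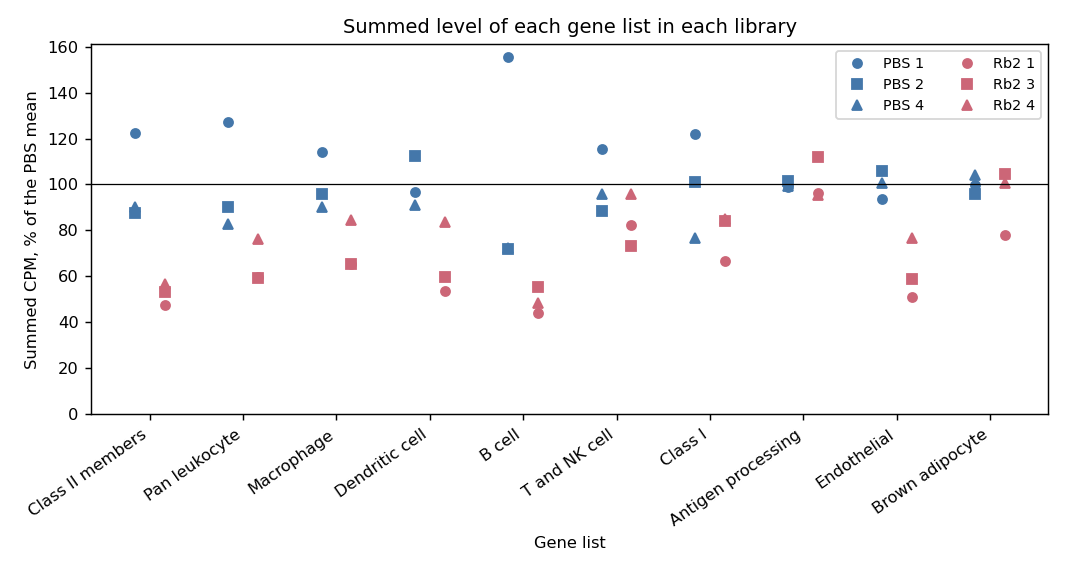
Summed CPM of the 10 members and of 9 gene lists in each library, as a percentage of the list's PBS mean (PBS in blue, Rb2 in red, axis from 0). The members lie at 47.7% to 56.6% in the Rb2 libraries, pan-leukocyte markers at 59.2% to 76.3%, and antigen processing genes near 100%, with PBS 1 the highest library for members, leukocytes and B cells.

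Across the 6 libraries log2 CPM of the 45 pairs of members had Pearson r from 0.51 to 0.995 with a median of 0.83. The difference between the groups contributes to this value. H2-Oa, whose lower Rb2 values were built in by the filter, is among the members used. Neither the pairs nor the profile were computed without it. The members' mean standardised profile was 1.27, 0.41 and 0.55 in PBS 1, 2 and 4, compared with -1.28, -0.41 and -0.55 in Rb2 1, 3 and 4. Of 12605 other genes with a mean of at least 1 CPM, 444 (3.52%) had an r over 0.9 with it. The closest 8 were Csk, Reep6, Copz2, Lgals1, Myl12b, Dbi, Ltc4s and 9130208D14Rik, with r from 0.987 to 0.998 over 6 libraries. Of these Ltc4s, leukotriene C4 synthase, fell (13.4 to 7.49 CPM, -0.84 ± 0.21 SE, edgeR adjusted p = 0.0351), as did 9130208D14Rik (-0.85 ± 0.21 SE, adjusted p = 0.0353). Csk, with the highest r, had -0.35 ± 0.12 SE and did not pass (adjusted p = 0.0980).

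**Figure D5:**
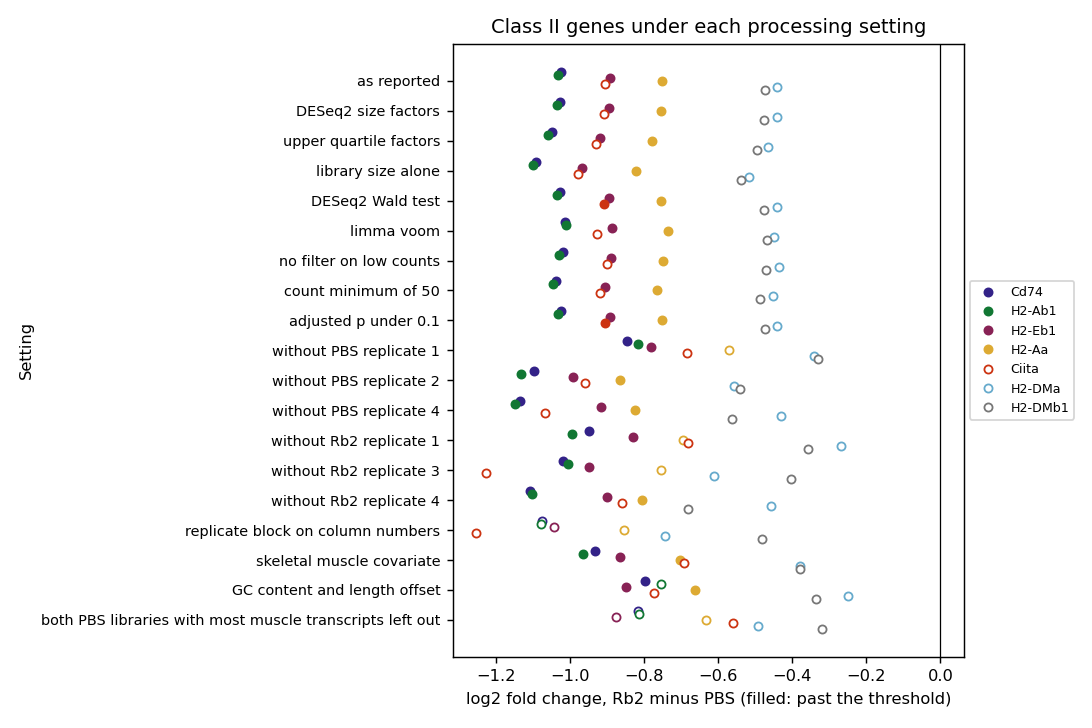
Log2 fold change (Rb2 minus PBS) of 7 members under each processing setting, with filled symbols past the setting's threshold. All values lie below 0, the calls of Cd74, H2-Ab1, H2-Eb1 and H2-Aa are lost together under the block on column numbers and with 2 PBS libraries left out, and Ciita passes in the DESeq2 test and at an adjusted p under 0.1.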

How the data were processed

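The authors deposited raw read counts per gene for 6 libraries, whole numbers that are not normalized. The submitters' processing notes name mm10 and the programs StringTie, HISAT2, Bowtie2 and Trimmomatic. The program that did the counting and its strand setting: not given in the sources used here. Per the labels' protocols, libraries were made with a stranded mRNA kit. The columns' numbers do not match those of the titles, so each column was mapped to its group alone.

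Counts were tested across all genes with edgeR 4.0.16 (R 4.3.3; TMM factors, filterByExpr with a count minimum of 10 and a total of 15, robust quasi-likelihood F test, Benjamini-Hochberg threshold 0.05). SE is the log2 fold change over the square root of F. CPM are TMM-normalised, given as mean ± SD of 3 libraries. Levels per kb and GC content used the longest RefSeq-linked GENCODE M21 transcript. The fit was tested on simulated data. Positions are RefSeq, GRCm38.p6, the assembly of mm10. No 2 libraries were duplicates (Pearson r 0.904 to 0.972).

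Members and lists were chosen with earlier results of these data known. All members were named. Of each list, up to 4 genes with the smallest p were named, others (such as B2m, Nlrc5, Rfx5, Cd4, Irf4, March1, Ctss, Ptprc, Adgre1, Cd68, Folr2, Ighm, Itgax, Flt3, Xcr1 and Clec9a) after their values were seen. List entries matched by symbol (196), gene ID (3) or synonym (1). Alternatives used DESeq2 1.42.0, limma-voom 3.58.1, other scalings and filters, covariates, an offset (splines with 5 degrees of freedom) and left-out libraries.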

Additional observations from a re-analysis of the deposited data

How the results depend on the processing

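All 10 members had negative log2 fold changes under each of the 18 alternatives that tested them. The count of members called lower, 4 as reported, was 3 to 4 with 1 library left out, 3 with the GC and length offset, 5 in the DESeq2 Wald test and at an adjusted p under 0.1 (Ciita added), and 0 with both muscle-rich PBS libraries left out, where edgeR called 0 genes in all. The fit without those libraries assumes that the lone PBS library varies like the Rb2 libraries. Over all genes the 1743 calls became 3309 in the DESeq2 Wald test, 3392 at an adjusted p under 0.1, 920 with the skeletal muscle covariate, and 303 to 2269 with 1 library left out. The fitted value of H2-Oa ranged from -6.74 (without Rb2 3, where both Rb2 counts are 0 and the fit depends on the prior count) to -2.23. H2-Oa and H2-Ob were not tested at a count minimum of 50, and DESeq2 gave no adjusted p for H2-Oa.

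A replicate block on the column numbers, of which the groups share 1 and 4, left 1 residual degree of freedom and called 96 genes and 0 members (log2 fold changes of Cd74 -1.07 and H2-Eb1 -1.04, unadjusted p under 0.05 in 7 members). Deviations of same-numbered libraries had r of -0.209 and -0.234 across genes, and those of differently numbered ones ran from -0.467 to 0.510. Deviations within a group sum to 0 and only 1 and 4 are shared. These values therefore cannot decide whether the numbers mark pairs. Depth limits H2-Oa, with 0 to 16 counts per library.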
